A study of Homo sapiens with 2 samples.

Results

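Olfactory receptor genes are the largest gene family of the human genome, and most of them lie in a few dense clusters of small genes whose coding sequence is a single exon. Each mature olfactory neuron expresses one of them, and in other cell types the clusters are known as silent, late-replicating chromatin that carries heterochromatin marks. H3K27ac, the acetylation of histone H3 at lysine 27, marks active promoters and enhancers, so a cluster of silent receptors shows what counts an H3K27ac library holds where little of the mark is expected. The 3 regions described here are intervals of hg19 chosen by position: chr11:55000000-56800000 just after the centromere (11q), chr11:4400000-6250000 (11p) and chr1:247600000-248850000 near the end of the long arm (1q). The members are the 233 anchors that overlap these intervals, of 250223 anchors in the data set, and the loops that touch them, where a loop is a pair of different anchors of one chromosome with midpoints up to 2 Mb apart and at least 1 count. They comprised 733 of 1013969 autosomal loops in replicate 1 and 874 of 1152836 in replicate 2. By interval, the anchors numbered 17 (11q), 172 (11p) and 44 (1q).

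The data are H3K27ac HiChIP of HCT116 cells, a long-established line from a human colorectal carcinoma, in 2 replicates of 1 condition. In HiChIP, chromatin is cut (here with MboI), neighbouring ends are ligated, and fragments that carry the mark are pulled down, so each pair of reads records which fragments lay together in chromatin with the mark. The values are raw counts of paired-end tags between anchors of one chromosome and sum to 1885481 in replicate 1 and 2131466 in replicate 2. The labels do not say whether the replicates came from separate cultures, so the spread between them may be technical. There is no second condition, so each value below is set beside the other 247023 autosomal anchors, and a difference is said to hold where the 95% intervals of both replicates lie on the same side of 1. These intervals cover counting error only. Expression was not measured in this series, so the silence of the receptors was not tested here.

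The anchors are runs of MboI fragments, and the recognition site GATC stood at both edges of 247255 of 247256 autosomal anchors and of 233 of 233 members. Edges of the anchors with the most contacts per kilobase on 11q and 1q are printed because they show what an anchor of these tables is. Each sequence is 44 bases of the plus strand of hg19 with the GATC of the edge in capitals. The 11q anchor overlapped no annotated gene. The 1q anchor lay inside OR2B11.

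11q, start, chr11:56701604-56701647: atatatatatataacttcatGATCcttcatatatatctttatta
1q, start, chr1:247613716-247613759: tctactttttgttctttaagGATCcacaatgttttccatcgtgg
1q, end, chr1:247615335-247615378: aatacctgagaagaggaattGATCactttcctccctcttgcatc

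The annotated start regions of the receptor genes are themselves unlike those of most genes. Start sites here are those of the annotation. Some receptor models may begin at the coding sequence rather than where transcription starts, which was not tested. In the 250 bases before the start site, the 151 receptor genes of the intervals had a median of 1 CG (a C followed by a G, the same on both strands), compared with 18 over all 19229 autosomal protein-coding genes. None of the 151 had 10 or more, which 70.3% of all genes had. The other 24 protein-coding genes of the intervals had a median of 2.5. GATC was present in 37.7% of the receptor upstream regions and in 34.1% of all. The upstream sequences of 4 genes are printed in the direction of transcription with each CG in capitals. OR5AS1 lies on 11q in the longest stretch without an anchor, OR51G2 and OR2C3 had the most contacts of the receptor promoters on 11p and 1q, and TRIM5, an antiviral restriction factor, had the most of the other promoters. They held 0, 2, 0 and 5 CG.

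OR5AS1, chr11:55794880-55795129, plus strand: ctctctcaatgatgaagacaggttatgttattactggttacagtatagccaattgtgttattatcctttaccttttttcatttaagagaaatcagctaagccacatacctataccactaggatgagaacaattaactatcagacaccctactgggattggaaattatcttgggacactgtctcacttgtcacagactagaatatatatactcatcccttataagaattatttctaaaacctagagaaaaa
OR51G2, chr11:4940581-4940830, minus strand: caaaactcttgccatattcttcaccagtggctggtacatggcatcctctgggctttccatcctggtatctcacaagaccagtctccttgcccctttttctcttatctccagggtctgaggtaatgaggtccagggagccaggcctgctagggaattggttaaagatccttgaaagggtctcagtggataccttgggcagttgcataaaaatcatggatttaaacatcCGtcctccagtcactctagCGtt
OR2C3, chr1:247699743-247699992, minus strand: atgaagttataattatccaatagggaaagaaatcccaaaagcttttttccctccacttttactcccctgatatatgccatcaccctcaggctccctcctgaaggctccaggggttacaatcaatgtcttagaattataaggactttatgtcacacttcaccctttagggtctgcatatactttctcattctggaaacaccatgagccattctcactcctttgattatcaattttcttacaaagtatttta
TRIM5, chr11:5706305-5706554, minus strand: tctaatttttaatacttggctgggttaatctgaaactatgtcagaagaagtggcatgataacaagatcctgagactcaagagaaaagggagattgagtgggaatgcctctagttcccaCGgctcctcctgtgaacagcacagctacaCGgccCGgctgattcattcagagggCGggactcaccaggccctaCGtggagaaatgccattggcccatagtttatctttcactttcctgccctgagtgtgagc

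The 3 intervals did not share one pattern. The 11q interval was almost without anchors, the 1q interval held most of its anchors at its start, and the 11p interval held them at the density of the other autosomal sequence. Anchors were therefore scarce on 11q and over much of 1q but not on 11p. Anchor density is no measure of activity, and whether any of the 3 intervals is silent was not tested. The anchors numbered 9.44 per Mb on 11q (exact Poisson 95% interval 5.50 to 15.1), 35.2 on 1q (25.6 to 47.3) and 93.0 on 11p (79.6 to 108), compared with 92.2 per Mb over the other autosomal sequence. Relative to that level, the density was 0.102 (0.0597 to 0.164) on 11q, 0.382 (0.277 to 0.513) on 1q and 1.01 (0.863 to 1.17) on 11p. Anchors covered 2.51%, 10.1% and 30.9% of the 3 intervals and 29.9% of the other sequence. Since 1 anchor set serves both replicates, these densities have no replicate spread.

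On 11q, a single stretch without any anchor ran from chr11:51574454 to chr11:56605238. It includes 3100 kb of unknown centromeric bases, and 1605 kb of it, 89.2% of the interval, lay inside the cluster. That part held 48 of the 50 receptor genes, 50 of the 52 receptor pseudogenes and other receptor loci, and all 3 other protein-coding genes. The receptors in it were those of families OR4, OR5, OR8, OR9 and OR10. All 17 anchors lay in the last part of the interval, at 87.3 per Mb outside the stretch. On 1q, 3 stretches of 135, 354 and 137 kb without an anchor made up 50.1% of the interval and held 22 of its 45 receptor genes, among them all OR2L and OR2M genes. On 11p there was 1 such stretch, of 151 kb (chr11:5753729-5905123), with 9 receptor genes from OR56B1 to OR52E4. Stretches of 100 kb or more without an anchor are common in the genome. There were 865 on the autosomes, with a median length of 194.7 kb and 16.4% of the known sequence, and 55 of them, that of 11q included, held at least as many known bases as that of 11q.

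**Figure D1:**
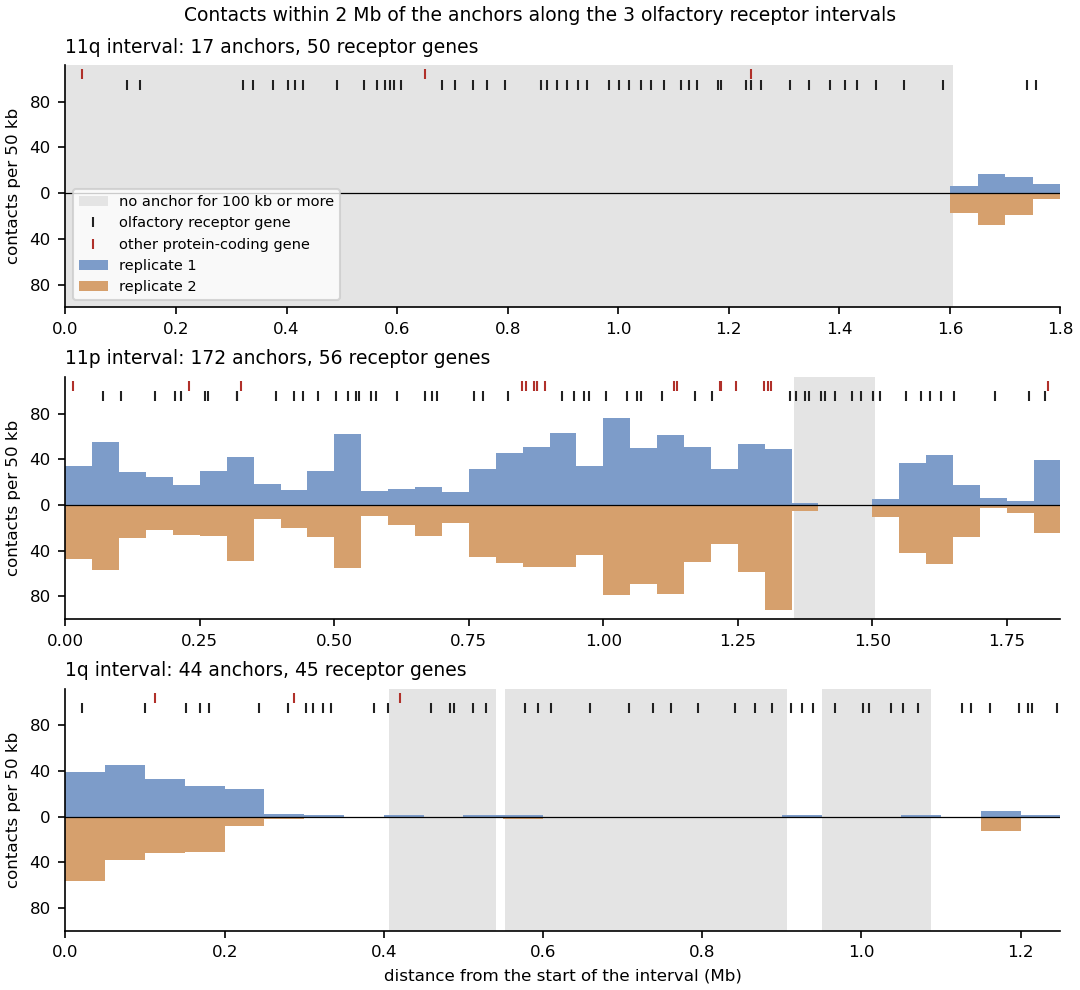
Contacts within 2 Mb counted at the member anchors, per 50 kb, along the 3 intervals (horizontal axis, distance from the start of the interval in Mb). Bars above the line are replicate 1 and bars below it replicate 2, a contact of a pair of anchors counts at both, grey areas are stretches of 100 kb or more without an anchor, and ticks are start sites of protein-coding genes. The bars of 11q begin after 1605 kb without an anchor, those of 11p run through most of its interval, and those of 1q are highest at its start.

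Windows of 100 kb gave the same picture, although the last window of 11p and that of 1q run past the end of the interval. No anchor was found in 16 of 18 windows on 11q, 3 of 13 on 1q and 1 of 19 on 11p, compared with 13.2% of all 26665 autosomal windows. On 11p, the windows held a median of 10 anchors, against 11 elsewhere. Elsewhere, 14.7% of the 129 windows with the start site of a receptor gene had no anchor. That share lay between the 3.80% of windows with any protein-coding start site and the 19.0% of windows without one. Base composition had the same order as the density among the 3 intervals, but not in every comparison. The GC content was 36.5% on 11q, 38.2% on 1q and 38.9% on 11p. It was 41.0% over the autosomes, although 11p had the anchor density of the other sequence. Inside and outside the stretches without an anchor, it was 36.3% and 38.7% on 11q, 38.1% and 38.3% on 1q, and 35.4% and 39.2% on 11p. Outside the intervals, 32.5% of windows under 36% GC lacked an anchor, 13.8% of those from 36 to 42%, and 4.15% of those at 42% or more. With the 3 intervals pooled the shares were higher within the same classes, at 6 of 7 windows under 36% GC (85.7%) and 14 of 42 from 36 to 42% (33.3%). Of these 20 empty windows, however, 16 were neighbours in the single stretch of 11q and only 1 lay on 11p, so the pooled shares do not describe 11p. MboI sites were not scarce, with 2.28, 2.38 and 2.48 GATC per kb on 11q, 1q and 11p and 2.49 over the autosomes. The share of 50-base words that occur more than once in the genome was 9.0% on 11q, 18.0% on 1q, 6.78% on 11p and 7.55% over the autosomes. It reached 46.3% in the third empty stretch of 1q, which holds OR2T1, OR2T2, OR2T3, OR2T5 and OR2T7, and 9.19% in that of 11q. Base composition and the intervals were compared only in these classes and stretches, and the part of repeated sequence in the density was not tested.

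A promoter is the annotated start site ± 2.5 kb, so the true promoter may be missed where a receptor model begins at its coding sequence. An anchor overlapped 44 of 151 receptor promoters (29.1%), compared with 84.2% of the 19229 autosomal protein-coding genes. The count was 1 of 50 on 11q, 10 of 45 on 1q and 33 of 56 on 11p. The 263 receptor genes elsewhere on the autosomes had an anchor at 146 promoters (55.5%), beside 58.9% on 11p. The 11p cluster is made up of families OR51, OR52 and OR56, the class I receptors, which resemble those of fish. There, an anchor overlapped 16 of 23 OR51, 13 of 26 OR52 and 4 of 7 OR56 promoters. On 1q the class II families gave 6 of 34 for OR2 and 2 of 6 for OR14. On 11q, it was 1 of 27 for OR5 (OR5AK2) and 0 of 12 for OR8 and 0 of 8 for OR4, although 15 of 26 OR5, 6 of 14 OR8 and 15 of 49 OR4 genes elsewhere had one. Receptor pseudogenes and other receptor loci showed the same order, with an anchor at 1 of 52 on 11q, 4 of 12 on 1q and 33 of 45 on 11p.

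The contacts of a promoter are the counts within 2 Mb of all anchors that overlap it. The median of both replicates summed was 0 over the 151 receptor genes and 13 over the 44 with an anchor. It was 28 over the other autosomal protein-coding genes outside the intervals, and 32 over those with an anchor. The receptor gene with the most contacts was OR51G2, with 27 in replicate 1 and 29 in replicate 2 over 3 anchors, 1 of which it shares with OR51G1 (18 and 15). OR52K2 followed with 22 and 21, at 1 anchor 11.8 kb wide, and OR56A5 with 17 and 21. These were above the median of those other genes in both replicates, where it was 13 and 15, although each rests on wide or several anchors. On 1q, OR2C3 had 14 and 15 and OR2B11 7 and 16, whereas the other 8 receptor genes with an anchor had 1 to 9 contacts summed. OR1C1, OR11L1 and OR2T10 were each at 1 count in replicate 1 and 0 in replicate 2. On 11q, the only receptor with an anchor, OR5AK2, had 2 and 2.

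Of the 5 receptors listed as reported outside the nose, 3 had an anchor at the promoter. OR51B5 had 16 and 17 contacts, OR51B4 had 15 and 14, and OR51E2, which is known from the prostate, had 3 and 13. The anchor of OR51E2 also overlaps the promoters of MMP26, a matrix metalloproteinase, and OR51C1P. OR51E1 had no anchor at its start site, but an anchor in the gene (chr11:4669994-4671401) was among the 5 of 11p with the most contacts per kilobase, with 7 and 7 contacts. OR2W3 on 1q lay in an empty stretch.

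Among the other genes of the intervals, 15 of 24 promoters had an anchor. The median was 15 contacts over all 24 and 20 over the 15 with an anchor. The β-globin genes, which are active in red cell precursors, lie inside the 11p receptor cluster, and 4 of 5 had an anchor. Their median was 15 contacts over all 5 and 17.5 over the 4. HBB had 14 and 17, HBD 10 and 10, and HBG1 and HBG2 each had 7 and 8 at different anchors, whereas HBE1 had none. Of the 7 listed TRIM genes, E3 ligases several of which restrict viruses, 5 had an anchor, with a median of 20 contacts over all 7 and 24 over the 5. TRIM5 had 13 and 23, TRIM68 11 and 15, TRIM34 11 and 13, TRIM22 8 and 12 and TRIM21 5 and 8. TRIM6 and, on 1q, TRIM58 had no anchor, and TRIM48 and TRIM51, which were not on the list, lay in the empty stretch of 11q. TRIM5, the highest of these, was at the median of other autosomal genes in replicate 1 and above it in replicate 2. Within the intervals, the 48 anchors at receptor promoters alone had a mean of 6.29 contacts in replicate 1 and 7.65 in replicate 2. The 17 anchors at other promoters had 7.82 and 10.1. The ratio was 0.804 (0.654 to 0.994) and 0.756 (0.629 to 0.911), so for the 3 intervals pooled the difference held in both replicates. With anchors at the start site itself it was 0.866 (0.680 to 1.11) and 0.806 (0.646 to 1.01) and did not hold. Of the promoters with an anchor, 33 of 44 of receptor genes but 14 of 15 of other genes lay on 11p, where anchors had more contacts than on 11q and 1q. The intervals were not separated in this ratio, so kind of gene and interval cannot be told apart in it.

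**Figure D2:**
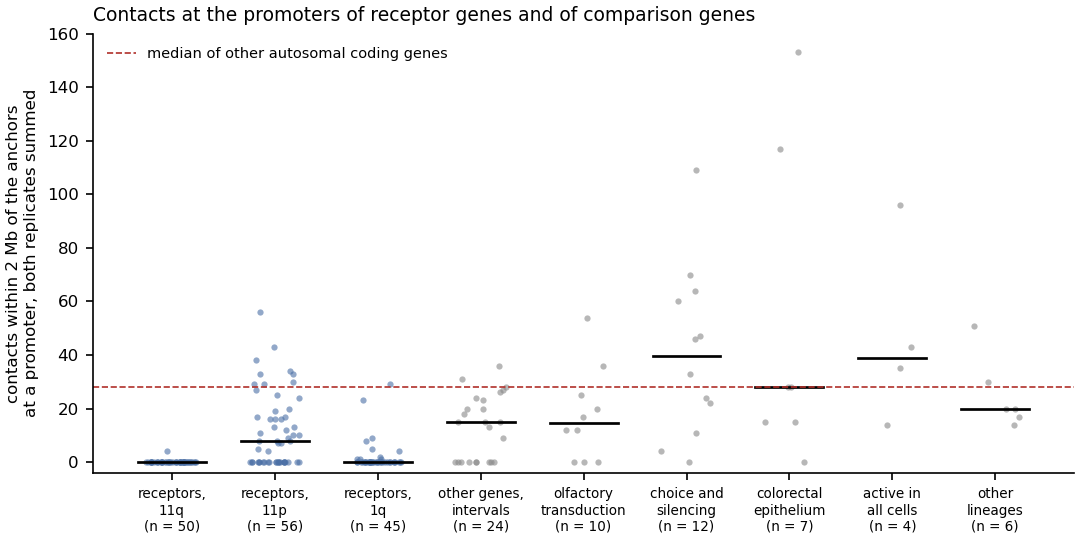
Contacts within 2 Mb of the anchors that overlap a promoter, both replicates summed (vertical axis), for the receptor genes of each interval, the other genes of the intervals and the comparison lists. Each point is a gene, horizontal bars are medians and the dashed line is the median of other autosomal protein-coding genes, 28. Of the receptor genes, 107 of 151 are at 0, and the highest, OR51G2, is at 56.

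The lists from outside the intervals place these levels. Of 10 autosomal genes of olfactory signalling, 7 had an anchor, with a median of 14.5 contacts over all 10 and 20 over the 7. RTP2, which helps receptors to the cell surface, had 33 and 21, while the G protein GNAL and the channel subunits CNGA4 and CNGB1 had none. Of 12 genes for receptor choice and silencing, 11 had an anchor, with a median of 39.5 over all 12 and 46 over the 11. They were led by EMX2 (56 and 53) and CBX5 (31 and 39), which encodes the heterochromatin protein HP1α and whose promoter anchor also overlaps the promoter of HNRNPA1. The markers of colorectal epithelium had an anchor at 6 of 7 promoters, with a median of 28 over all 7 and also over the 6, and KRT18 (70 and 83) and KRT8 (54 and 63) were the highest. CEACAM5 had none. All 4 promoters active in every cell had one, with a median of 39, from 14 at ACTB to 96 at EEF1A1. So did all 6 promoters of other lineages, with a median of 20, from 14 at GFAP to 51 at MYH7. Anchors were thus also found at promoters of genes known for their expression in other tissues. However, 85.0% of the 18791 other autosomal protein-coding genes outside the intervals had one. The pooled median of 13 at the receptor promoters with an anchor was 1 contact below the lowest promoters of both lists, GFAP and ACTB. By interval, that median was 16 on 11p, above both, and 4.5 on 1q, and the only such promoter on 11q had 4.

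The anchors that the intervals did hold had fewer contacts than others. The mean count within 2 Mb per anchor, relative to the other autosomal anchors, was 0.277 (0.191 to 0.386) in replicate 1 and 0.368 (0.278 to 0.477) in replicate 2 on 11q. It was 0.432 (0.359 to 0.516) and 0.379 (0.316 to 0.450) on 1q, and 0.701 (0.649 to 0.757) and 0.698 (0.650 to 0.749) on 11p. The intervals of 11p lay above those of both other clusters in each replicate, while those of 11q and 1q overlapped. A contact within 2 Mb needs a second anchor there. The anchors of 11q border the stretch of 5031 kb without one, and 1q lies near the chromosome end. The number of partners was not separated out in these ratios. Against the pairs present at each distance, replicates summed, 11q had 0.439 inside and 0.684 across its edge, 1q 0.597 and 0.688, and 11p 0.760 and 0.804. Median counts per anchor in replicates 1 and 2 were 3 and 4 on 11q, 2.5 and 3 on 1q, 6 and 7 on 11p, and 8 and 9 elsewhere. Counts within a single anchor, which need no second anchor, were also lower, at 0.194 (0.0528 to 0.496) and 0.485 (0.232 to 0.891) on 11q, 0.562 (0.379 to 0.802) and 0.506 (0.333 to 0.736) on 1q and 0.843 (0.723 to 0.977) and 0.771 (0.657 to 0.900) on 11p. No such count in either replicate was seen at 94 of 233 members, 40.3%, compared with 32.9% of all autosomal anchors. The median width of an anchor was 2384, 2277 and 2498 bp on 11q, 1q and 11p and 2547 bp elsewhere. Per kilobase of anchor, the ratios of contacts within 2 Mb were 0.338 and 0.450 on 11q, 0.489 and 0.429 on 1q and 0.685 and 0.682 on 11p. Per kilobase, both replicates summed, 17 of 17, 42 of 44 and 127 of 172 anchors were below the autosomal median of 6.01 contacts per kb.

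**Figure D3:**
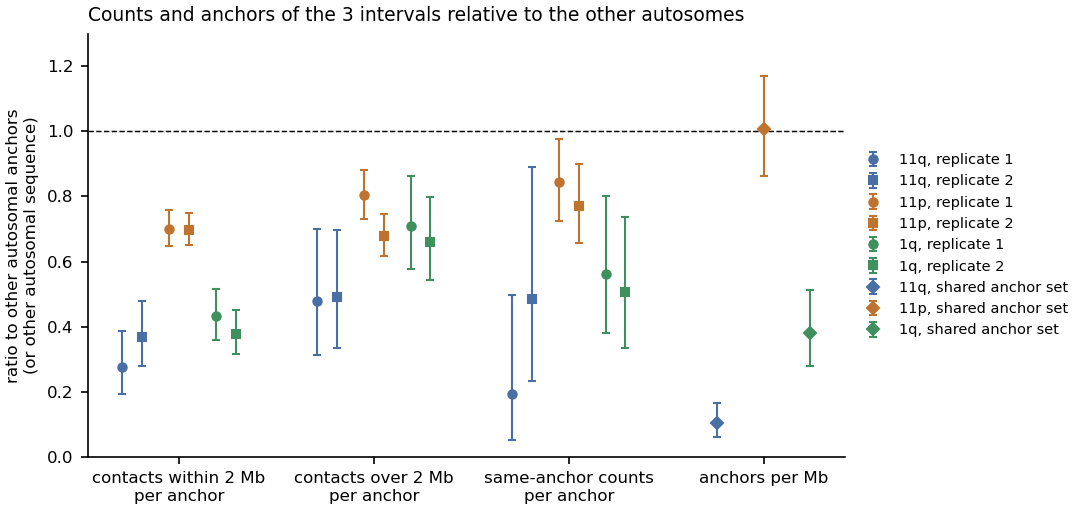
Contacts within 2 Mb, contacts over 2 Mb and same-anchor counts per anchor, each relative to the other autosomal anchors, and anchors per Mb relative to the other autosomal sequence (vertical axis, ratio). Circles and squares are replicates 1 and 2, diamonds the shared anchor set, and bars 95% counting intervals. All ratios of counts lie below 1, and of the densities that of 11p lies at 1.01.

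The members with the most contacts per kilobase differed in rank between the clusters. Among the 11p anchors given here, that in TRIM5 (chr11:5690548-5692029) had 10 and 8 contacts within 2 Mb in replicates 1 and 2 and was at the 91.7 percentile of autosomal anchors by contacts per kb. The anchor in OR51E1 followed, and then chr11:5452901-5454472 with 7 and 8 and the OR51G2 anchor chr11:4939764-4941132 with 4 and 9. On 1q, the anchor at OR2B11 printed above had 10 and 4, at the 76.0 percentile, and chr1:247608566-247610118, in the inflammasome gene NLRP3, had 6 and 5. The others lay in GCSAML (chr1:247733616-247735155, 4 and 5), at OR2G2 (chr1:247751511-247753090, 5 and 4) and at chr1:247821507-247823561 (8 and 2). On 11q, none of the 5 overlapped a gene, and the highest, printed above, had 3 and 6 and was only at the 29.9 percentile. The others were chr11:56605239-56606923 (1 and 6), chr11:56717817-56720046 (4 and 5), chr11:56665647-56669764 (5 and 8) and chr11:56678122-56679418 (0 and 4).

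Along 11p, the level was uneven in both replicates. The 100-kb windows with the most contacts were those from chr11:5400001 (OR51M1, OR51Q1, OR51I1 and OR51I2), with 274 contacts over 13 anchors, and from chr11:5500001 (with OR52D1 and OR52H1), with 240 over 16. The window of the globin genes had 201 over 12. Fewer were counted between chr11:5000001 and chr11:5100000, around OR51L1 and OR52E2, where 10 anchors had 75, and between chr11:6100001 and chr11:6200000, around OR56B4 and OR52B2, where 2 anchors had 19. On 1q, the first 2 windows, with OR2B11, OR2C3 and GCSAML, held 178 and 123 contacts over 13 and 12 anchors, and the third held 36 over 6. No later window wholly inside the interval exceeded 18. The last window, which also had 36 over 6, runs past the end of the interval and includes anchors that are not members.

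By distance, the makeup of counts differed from that elsewhere most clearly on 1q. Counted at the anchors, 34.7% and 28.2% of the counts of 11q in replicates 1 and 2 and 32.1% and 33.9% of those of 1q joined anchors over 2 Mb apart, compared with 22.9% and 23.2% elsewhere. On 11p the share was 24.9% and 22.6%. Per anchor, contacts over 2 Mb stood at 0.478 (0.312 to 0.701) and 0.491 (0.334 to 0.697) of the other autosomal level on 11q, and at 0.803 (0.730 to 0.882) and 0.680 (0.617 to 0.747) on 11p. On 1q they stood at 0.711 (0.578 to 0.864) and 0.661 (0.543 to 0.799), above the intervals of contacts within 2 Mb in both replicates. On 11q those intervals overlapped in both replicates, so the larger share of distant contacts there did not hold up. The 1q interval lies near the chromosome end and the anchors of 11q border the stretch without an anchor. Both thus have room for fewer partners within 2 Mb on one side, and a lack of near partners can raise the share over 2 Mb. The number of partners was not taken into account, and its part in these shares was not tested.

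**Figure D4:**
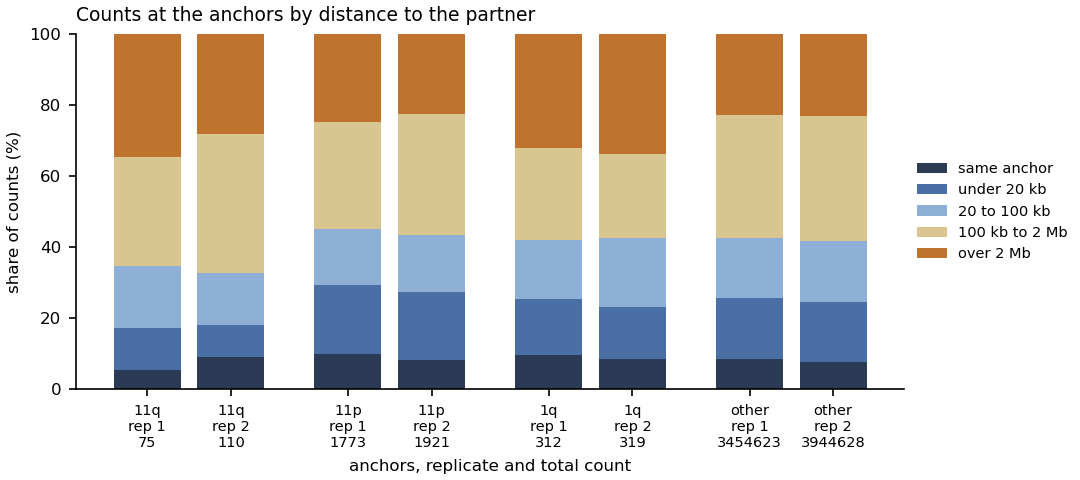
Share of the counts at the anchors (vertical axis, %) by distance to the partner anchor, for the 3 intervals and the other autosomal anchors in each replicate, with the total count under each bar. The share over 2 Mb is 28.2% to 34.7% on 11q and 1q and 22.6% to 24.9% on 11p and elsewhere.

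The loops themselves were nearly all of 1 count, as most loops of these tables are. Among loops with a member anchor, 67 of 733 (9.14%, exact binomial 95% interval 7.15 to 11.5) had 2 or more counts in replicate 1 and 70 of 874 (8.01%, 6.30 to 10.0) in replicate 2, compared with 11.3% and 12.1% of all autosomal loops. The difference did not hold in replicate 1. It depended on which loops were taken, since 64 of 484 (13.2%) and 62 of 545 (11.4%) of the loops with both anchors in a cluster had 2 or more counts. Those loops are confined to the length of an interval and were not matched for distance. Among loops of 20 kb to 2 Mb with a member anchor, the shares were 4.09% (2.64 to 6.02) and 4.04% (2.73 to 5.76), compared with 5.95% and 6.77% of other loops. That difference did not hold in replicate 1 either. Counts of 5 or more were seen at 1 of 733 and 0 of 874 loops, compared with 0.494% and 0.596% of all autosomal loops. The exact intervals were 0.00345% to 0.758% in replicate 1 and 0 to 0.421% in replicate 2, so this difference did not hold in replicate 1. Of the loops of one replicate, 116 were found in the other, 15.8% (13.3 to 18.7) of those of replicate 1 and 13.3% (11.1 to 15.7) of those of replicate 2. Over all loops the shares were 19.8% and 17.4%. With each loop weighted by its number of member anchors, the shares were 17.9% (15.1 to 21.0) and 15.4% (12.9 to 18.0), and the difference no longer held. The largest count was 6 in replicate 1 and 4 in replicate 2, against 46 and 60 among the 1013236 and 1151962 other loops. A maximum rises with the number of loops, and these maxima were not matched for it.

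The loops with the highest counts on 11p and 1q were short. On 11p, chr11:4467096-4478856, which holds OR52K2, and chr11:4481397-4487471 shared 6 and 1 counts over 11.5 kb. The anchors chr11:5410021-5413615 at OR51M1 and chr11:5414852-5424726 at OR51J1 shared 4 and 3 over 7.97 kb, and chr11:5299996-5304638 and chr11:5305798-5309218, upstream of the globin genes, 4 and 3 over 5.19 kb. On 1q, the first was OR2C3 (chr1:247695994-247704665) to GCSAML (chr1:247711133-247713716) with 3 and 2 over 12.1 kb. A wide anchor at the pseudogene OR2W5P (chr1:247653707-247665736) shared 2 and 1 with each of 2 anchors, 21.2 and 9.83 kb away. On 11q, the highest was 2 and 1, between chr11:56653109-56657627 and chr11:56665647-56669764. The second anchor of that pair also had 1 and 1 with chr11:58425676-58429080, 1760 kb away, and 0 and 2 with chr11:56695292-56698902. Among loops of 20 kb or more on 11p, OR56A1 to CAVIN3 outside the interval (2 and 2 over 299 kb), OR52K2 to TRIM68 (2 and 2 over 155 kb) and OR56A5 to OR56A1 (3 and 1 over 52.7 kb) were the highest. The CAVIN3 anchor just past the 11p interval was the partner with the most counts outside, 13 and 16 summed over all member anchors.

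Each pair was set against the count expected from its distance and the depth of its anchors by a Poisson test (one-sided), with p adjusted by Benjamini and Hochberg's method over the 50903064 autosomal anchor pairs. An adjusted p under 0.01 was reached by 0 member pairs in either replicate. This compares with 5 pairs, 9.82e-06% of all, in replicate 1 and 14, 2.75e-05%, in replicate 2. With distance alone as the expectation, 0 member pairs passed against 1306 and 1793 in all, and the lowest adjusted p among members was 0.339 for the 6-count loop of OR52K2 in replicate 1 and 0.212 for a 2-count pair in replicate 2. At an unadjusted p under 0.05 for distance and depth there were 443 of 733 (60.4%) and 516 of 874 (59.0%) member loops, compared with 49.1% and 46.5% of all autosomal loops. Only pairs with a count enter these shares, and a low depth of the anchors lowers the expectation, so a higher share of members is in part built in. With distance alone, 393 (53.6%) and 488 (55.8%) member loops passed, beside 543769 of 1013969 and 599065 of 1152836 of all autosomal loops. With only 5 and 14 calls among all autosomal pairs, few loops could be called at this depth, and the absence of specific loops in the clusters was not shown.

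Summed over all pairs, including those without counts, contacts inside the clusters were fewer than their distances give. The ratio of observed to expected counts was 0.433 (0.216 to 0.775) and 0.445 (0.237 to 0.761) in replicates 1 and 2 on 11q, from 136 pairs. It was 0.670 (0.511 to 0.864) and 0.533 (0.401 to 0.696) on 1q and 0.772 (0.705 to 0.843) and 0.749 (0.688 to 0.814) on 11p. Pairs across the edge of an interval gave 0.745 (0.636 to 0.868) and 0.854 (0.744 to 0.975) on 11p and 0.679 and 0.695 on 1q, and 0.515 and 0.829 on 11q, where the interval of replicate 2 included 1. With both replicates and all 3 clusters summed, the ratio inside was 0.785 (0.709 to 0.867) under 20 kb, 0.718 (0.647 to 0.796) from 20 to 100 kb, 0.674 (0.602 to 0.753) from 100 to 500 kb and 0.765 (0.633 to 0.917) beyond, with intervals that overlapped. The clusters differ in their distances, and 11q had no pairs beyond 500 kb. On 11p alone, the ratio was 0.860 (0.770 to 0.957) under 20 kb, 0.737 (0.656 to 0.825) from 20 to 100 kb, 0.686 (0.610 to 0.768) from 100 to 500 kb and 0.781 (0.644 to 0.937) beyond, and the first and the third of these intervals did not overlap. With the depth of each anchor in the expectation, the ratio inside was 1.02 for the sum of the 3 clusters (0.959 to 1.08), 1.02 on 11p, 0.996 on 1q and 0.915 on 11q. That expectation is fitted to the counts of these same anchors, so a ratio near 1 is in part built in and describes only how their counts were spread over partners.

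**Figure D5:**
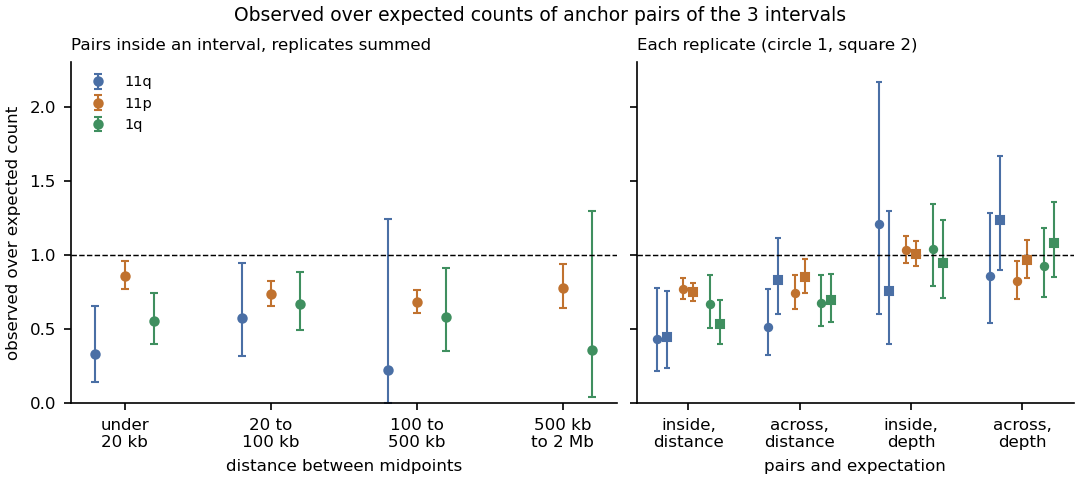
Ratio of observed to expected counts of anchor pairs (vertical axis). Left, pairs inside an interval by distance, with distance alone as the expectation and replicates summed. Right, each replicate for pairs inside and across the edge of an interval, with distance alone and with distance and anchor depth; bars are exact Poisson 95% intervals. With distance alone the ratios lie below 1, though some intervals include it, and with depth the summed ratio inside is 1.02.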

How the data were processed

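The series holds H3K27ac HiChIP libraries of HCT116 cells, 1 condition in 2 replicates. Per the labels and the paper's methods, the authors cut chromatin with MboI, obtained valid pairs with HiC-Pro on hg19 and loops with hichipper. They deposited, per replicate, raw counts of paired-end tags between anchors of one chromosome, without normalization and including counts of an anchor with itself. Versions and anchor settings are not given in the sources used here. Unlisted pairs count as 0, and a table without molecular identifiers gives intervals of counting error only.

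Genes came from GENCODE release 44 on GRCh37 (canonical transcript), and sequences from GRCh37. All positions count from 1. Comparisons used the autosomes. Ratios of counts per anchor have exact conditional 95% intervals (Clopper-Pearson on the share of counts, each contact counted once), shares Clopper-Pearson and counts exact Poisson intervals. Expected counts came from 60 distance classes, or from these and anchor weights balanced in 20 rounds. In the test of single pairs, the expectation was scaled to leave the pair's own count out of the depth of both anchors (offset 0.5). The ratios summed over pairs used the weights as fitted, with no count left out. The scripts were tested on simulated data. Repeated 50-base words were counted on both strands, every base in the intervals and every 1000 bases elsewhere. Named anchors were the 5 with the most contacts per kb in each cluster, named loops the 3 with the highest summed counts (also of 20 kb or more, added after values were seen), and named genes came from fixed lists or extremes of the counts. The members and lists were chosen with earlier results of these data known. One of these anchors, on 11p, and its gene are not reported here, so 4 of 5 are given for that cluster. CNGA2, on chromosome X, was not counted. Alternatives were the bounds, the comparison set, the scale, the distance range and measure, the weighting, the expectation, the adjusted p and each replicate left out. The contacts over 2 Mb and the weighting of loops were added after seeing the data. Analysis used Python 3.11.15 with scipy 1.17.1, numpy 2.4.6, numba 0.67.0, pandas 2.3.3, matplotlib 3.10.9 and pysam 0.24.0, and samtools 1.23.1.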

Additional observations from a re-analysis of the deposited data

How the results depend on the processing

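Of 153 alternative values, 129 kept both their direction and whether the difference held in both replicates. Of the others, 12 kept their direction but no longer held, 5 held where the main value did not, and 7 turned in direction. With distance and anchor depth as the expectation, no ratio of observed to expected counts held in both replicates: inside 0.915 (11q), 1.02 (11p), 0.996 (1q) and 1.02 (all 3), and across 1.07, 0.901, 1.01 and 0.941, where the depth is fitted to the same counts. Across the edge of 11p, replicate 1 alone still lay below 1 (0.826, 0.705 to 0.962). Over 20 kb to 2 Mb, fewer counts remained and the ratios inside 11q (0.502) and 1q (0.628) no longer held. Between the first and the last receptor gene, the ratio across the edge of 11p was 0.887 and no longer held, and its anchor density turned from 1.01 to 0.991, or to 0.970 against chromosomes 1 and 11. The same-anchor ratio no longer held per kb on 11q (0.415), or on 11p without anchors near other genes (0.803). The ratio of receptor to other promoters no longer held at start sites only (0.833). The share of loops of 2 or more counts, 0.730 of that elsewhere, was 1.05 with both anchors in a cluster and held at 0.750 with replicates summed. That of 5 or more held at 0.365 with replicates summed. The share found in both replicates, 0.781 of that elsewhere, no longer held with a minimum of 2 counts (0.821) or weighted by member anchors (0.895).

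Leaving out either replicate gave 0.664 to 0.812 for the share of 2 or more counts and 0 to 0.276 for that of 5 or more, both held on replicate 2 alone, and 0.515 to 0.829 across the edge of 11q, held on replicate 1 alone. Contacts per anchor on 11q gave 0.277 to 0.368 and same-anchor counts there 0.194 to 0.485, from 4 and 10 counts, so the latter rests on very few. No paired analysis was possible because the 2 replicates belong to 1 group.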
